A study of Homo sapiens with 8 samples.

Results

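The epithelial miRNAs examined here were the 5 guide strands of the miR-200 family (hsa-miR-200a-3p, hsa-miR-200b-3p, hsa-miR-200c-3p, hsa-miR-141-3p and hsa-miR-429) and hsa-miR-205-5p. They were selected by miRNA name, by a rule that used no signal value although earlier results of these data were known, and they made up 6 of the 1887 human miRNAs on the array. RNA came from PC-3 cells, an established line derived from human prostate cancer, that were cultured for 24 h with the solvent DMSO alone, with 60 µM luteolin, with 60 µM gefitinib, or with 60 µM of each drug together. Luteolin is a flavonoid found in plants, and gefitinib inhibits the kinase of the epidermal growth factor receptor. Each of the 4 treatments had 2 arrays, described in the labels as biological replicates, and all 8 arrays lay on 1 slide that was scanned once. All groups were of this single line.

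The miR-200 family and miR-205 are known for holding epithelial cells in the epithelial state. They repress ZEB1 and ZEB2, which are transcription factors that silence E-cadherin, the adhesion protein of epithelial cell junctions, and ZEB1 and ZEB2 in turn repress the genes of the miR-200 family. In prostate epithelium miR-205 is known mainly from basal cells, and loss of these miRNAs is a known feature of the epithelial-mesenchymal transition.

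The family is encoded at separate loci, and its members fall into seed groups that cut across those loci. The mature sequences are shown because the seed (bases 2 to 8 from the 5′ end, in capitals), which pairs with target mRNAs, defines the groups. Some members also differ at few other bases. The sequences were taken from RefSeq (GRCh38.p14), which held all 6 members. The seed AAUACUG was shared by 3 members and by no other mature human miRNA in that collection:
hsa-miR-200b-3p: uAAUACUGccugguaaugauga
hsa-miR-200c-3p: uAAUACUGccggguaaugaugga
hsa-miR-429: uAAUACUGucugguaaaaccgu
The seed AACACUG was shared by the other 2 family members and by no further miRNA:
hsa-miR-200a-3p: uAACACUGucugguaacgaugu
hsa-miR-141-3p: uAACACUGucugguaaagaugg
miR-205-5p had a seed of its own:
hsa-miR-205-5p: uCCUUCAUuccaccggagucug

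miR-200b-3p and miR-200c-3p were identical at 20 of the 22 positions compared and differed by U11G and A22G, counted from the 5′ end with the base of miR-200b-3p first. miR-200c-3p is 23 bases long, against 22 for miR-200b-3p, and its last base was not compared. miR-200a-3p and miR-141-3p were also identical at 20 of 22 positions and differed by C17A and U22G. Each of these near-identical pairs has 1 strand from chromosome 1 and 1 from chromosome 12. miR-429 was less close to the members that share its seed. It differed from miR-200b-3p at 6 and from miR-200c-3p at 7 of 22 positions. On GRCh38.p14, miR-200b-3p lies at chr1:1167160-1167181, miR-200a-3p at chr1:1167916-1167937 and miR-429 at chr1:1169055-1169076, all on the plus strand within the span of MIR200BHG, the host gene of a non-coding RNA. miR-200c-3p at chr12:6963742-6963764 and miR-141-3p at chr12:6964155-6964176 lie on the plus strand within MIR200CHG. miR-205-5p lies at chr1:209432166-209432187 on the plus strand within MIR205HG. The gene table gave spans only, so exons and introns were not told apart.

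The members split by locus in whether they were detected, and seed did not follow that split. The 3 members of the cluster on chromosome 1 were detected by the scanner software on all 8 arrays. Neither member of the cluster on chromosome 12 was detected on any of the 8 arrays, whatever the treatment. miR-205-5p was detected on 6 arrays and stood close to the limit of the assay. Over all 1887 human miRNAs, 365 were detected on all 8 arrays and 1365 (72.3%) on none, so the absence of a signal for a miRNA was the common outcome.

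Each miRNA had 30 spots per array, shared between 2 probes for every member. For miR-200b-3p, miR-200a-3p and miR-429, all 30 spots lay well above background on each of the 8 arrays, as scored by the scanner software. For miR-200c-3p, 0 of the 240 spots on the 8 arrays lay well above background, and 33 were scored as significantly positive. Its mean signal per spot ranged from -0.32 to 0.04 over the arrays, below the mean of the negative control spots of the same arrays, which ranged from 1.28 to 1.93. For miR-141-3p, 2 of 240 spots lay well above background, both on replicate 2 of gefitinib, and 108 were scored as significantly positive. Its mean per spot ranged from 0.760 to 2.03, and on every array it lay within 1 SD of the mean of the negative controls (SD 1.24 to 1.37 over the 386 to 396 control spots kept per array). At this sensitivity miR-200c-3p and miR-141-3p have no measured level in any group, and no fold change is given for them. The array measured mature strands, so the state of the chromosome 12 gene itself was not observed.

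**Figure D1:**
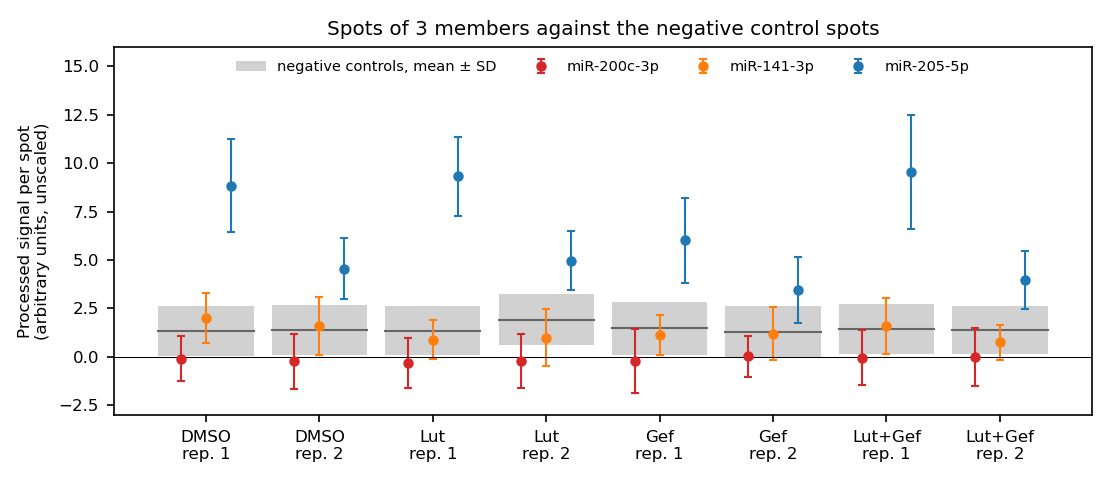
Processed signal per spot, in arbitrary units before scaling, on each of the 8 arrays for miR-200c-3p, miR-141-3p and miR-205-5p (points, mean of 30 spots less those rejected as outliers; bars, SD over spots). Grey boxes show the mean ± SD of the negative control spots of the same array. miR-200c-3p and miR-141-3p had array means between -0.32 and 2.03, within 1 SD of the controls or below them, and miR-205-5p had array means between 3.44 and 9.54.

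The opposite strands of the same hairpins, which are usually degraded, gave little signal. miR-200a-5p, miR-200c-5p, miR-141-5p and miR-205-3p were detected on 0 arrays. miR-200b-5p was detected on 7 of 8 arrays, with a scaled signal between 0.573 and 2.25 and only 10 of its 240 spots well above background. The one array without it was replicate 2 of luteolin plus gefitinib, on which the fewest miRNAs (395) were detected. The strands seen from the chromosome 1 locus were thus its 3 guide strands and, at the limit of detection, the opposite strand of miR-200b.

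The windows around the annotated starts of both host genes are shown because ZEB1 and ZEB2 are known to bind E-box sequences in the promoters of both clusters. Each runs from 250 bases before to 50 bases after the RefSeq start (GRCh38.p14), and capitals mark CAGGTG on either strand, which reads CACCTG on the plus strand as printed. The window of MIR200BHG, chr1:1162627-1162926 on the plus strand, held the motif 2 times, beginning 102 and 58 bases before the start:
MIR200BHG: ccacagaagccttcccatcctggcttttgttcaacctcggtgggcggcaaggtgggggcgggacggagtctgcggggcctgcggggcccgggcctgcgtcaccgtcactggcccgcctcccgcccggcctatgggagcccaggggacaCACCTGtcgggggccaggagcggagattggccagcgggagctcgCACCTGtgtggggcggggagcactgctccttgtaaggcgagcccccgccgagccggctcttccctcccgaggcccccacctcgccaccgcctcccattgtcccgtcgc
The window of MIR200CHG, chr12:6962995-6963294 on the plus strand, held it 1 time, beginning 78 bases before the start:
MIR200CHG: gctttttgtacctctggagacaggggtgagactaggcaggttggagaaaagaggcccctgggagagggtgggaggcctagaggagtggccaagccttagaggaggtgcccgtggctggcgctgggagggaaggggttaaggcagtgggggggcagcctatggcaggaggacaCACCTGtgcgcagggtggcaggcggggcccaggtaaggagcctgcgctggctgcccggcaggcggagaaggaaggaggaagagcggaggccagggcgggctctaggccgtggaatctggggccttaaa
The window of MIR205HG held 0 copies. Among 35116 RefSeq promoter windows of the same length, 20.6% held at least 1 copy and 3.49% held 2 or more, so the motif is common and its presence did not separate the detected cluster from the undetected one. No binding was measured in this series.

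To examine whether either drug changed the members that could be measured, the total signal of each miRNA was scaled to the 75th percentile of its array and compared on the log2 scale with limma. Among the 6 members, 4 passed the filter on detection, which required both arrays of at least 1 group, and 480 miRNAs passed in all. miR-205-5p passed only through DMSO and luteolin, so lower values of it with gefitinib are in part built into the filter. Calls were made at a limma p-value under 0.05 after Benjamini-Hochberg adjustment across those 480. Against DMSO, 0 of 4 members were called with luteolin, where 2.08% of all tested miRNAs were called. With gefitinib 0 of 4 members were called against a background of 12.1%, and with luteolin plus gefitinib 0 of 4 were called, again against 12.1%. Without adjustment, limma gave 0 members with a p under 0.05 in these comparisons, against 41, 114 and 124 of the 480. The methods' t-test also gave 0 members, against 13, 46 and 44 miRNAs that met its threshold together with a change over 2-fold. In RNA of whole cultures, fewer cells with a miRNA and less of it per cell cannot be told apart. With few members and backgrounds of this size, counts of 0 do not set the members apart from other miRNAs.

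hsa-miR-200b-3p, the first guide strand of the chromosome 1 cluster, had a scaled signal of 143 and 144 on the 2 DMSO arrays, 137 and 146 with luteolin, 153 and 124 with gefitinib, and 153 and 134 with luteolin plus gefitinib (replicate 1 first). The arrays of every drug group fell on both sides of the DMSO pair, so each group overlapped the controls. The means were 143 ± 1.24 (DMSO), 141 ± 6.85 (luteolin), 138 ± 20.9 (gefitinib) and 143 ± 13.1 (both drugs; SD, n = 2). The log2 fold changes against DMSO were -0.02 with luteolin, -0.06 with gefitinib and -0.00481 with both (SE 0.16, limma). The 95% limma intervals ran from -0.42 to 0.38, from -0.46 to 0.34 and from -0.40 to 0.40, respectively. The adjusted p-values from limma were 1, 0.868 and 1.

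hsa-miR-200a-3p, which carries the other seed of the family, had a scaled signal of 85.1 and 85.0 with DMSO, 81.6 and 84.9 with luteolin, 82.8 and 68.7 with gefitinib, and 88.7 and 74.9 with luteolin plus gefitinib. Both luteolin arrays and both gefitinib arrays lay below both DMSO arrays, which were almost equal to each other. The same was true of 16.2% of the 365 miRNAs detected on all arrays with luteolin and of 38.1% with gefitinib, so this separation was common. The arrays given both drugs lay on either side of the DMSO pair, whereas 31.8% of the 365 had both of these arrays below it. The means were 85.1 ± 0.0622, 83.3 ± 2.29, 75.7 ± 9.96 and 81.8 ± 9.77 (SD, n = 2, groups in the same order). Its log2 fold change against DMSO was -0.17 with gefitinib (SE 0.16, 95% interval -0.57 to 0.22, limma adjusted p = 0.610), the lowest among the chromosome 1 members. It was -0.03 with luteolin and -0.06 with both drugs (limma adjusted p = 1 and 0.861). The 95% limma intervals of all 3 comparisons included 0.

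hsa-miR-429, which shares its seed with miR-200b-3p and lies farthest downstream in the cluster, had a scaled signal of 36.7 and 30.6 with DMSO, 35.9 and 31.2 with luteolin, 34.1 and 27.0 with gefitinib, and 38.1 and 27.5 with luteolin plus gefitinib. Replicate 1 was higher than replicate 2 in all 4 groups, by 1.20, 1.15, 1.27 and 1.38 times, and all drug groups overlapped the DMSO arrays. The means were 33.6 ± 4.37, 33.6 ± 3.30, 30.5 ± 5.06 and 32.8 ± 7.48 (SD, n = 2). The log2 fold changes against DMSO were -0.000873 with luteolin, -0.14 with gefitinib and -0.05 with both drugs (SE 0.23). The 95% limma interval for gefitinib ran from -0.71 to 0.43, and the adjusted p-values of the 3 comparisons were 1, 0.793 and 0.933.

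**Figure D2:**
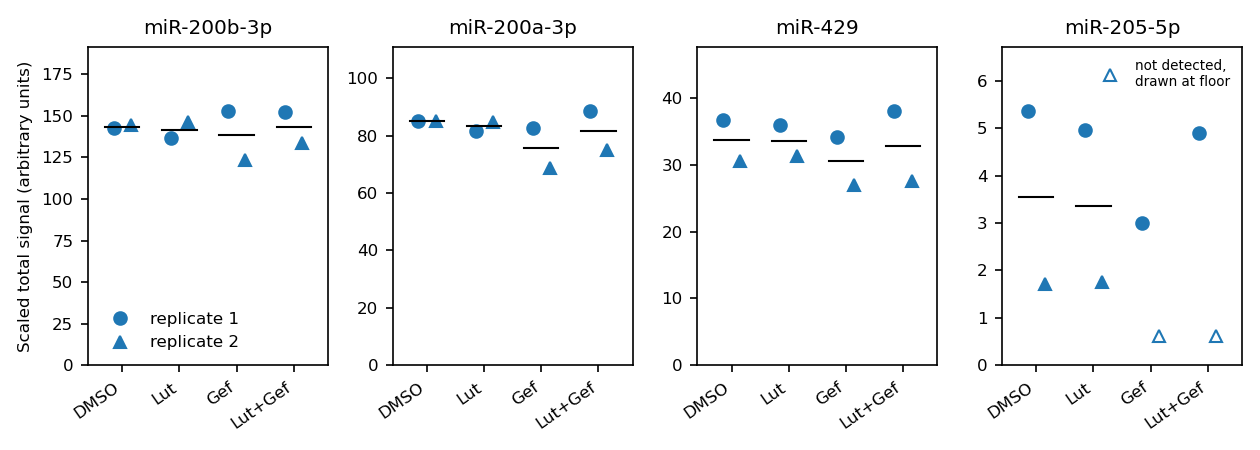
Scaled total signal, in arbitrary units on linear axes that start at 0, of the 4 members detected on at least 1 array, by treatment (Lut, luteolin; Gef, gefitinib). Circles are replicate 1, triangles replicate 2, and lines the mean where both arrays of a group detected the miRNA. Open triangles mark the 2 arrays on which miR-205-5p was not detected, drawn at the floor of 0.609. In the miR-429 and miR-205-5p panels, replicate 1 lay above replicate 2 in all 4 groups.

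Over the 3 members of the chromosome 1 cluster and the 3 comparisons with DMSO, the 95% limma intervals taken as fold changes lay between 0.609 and 1.49. Both extremes belonged to miR-429, and the intervals of miR-200b-3p and miR-200a-3p were narrower. The error that the scanner software assigned to the total signal was between 7.24% and 7.81% for these members on every array. The SD between replicates was above that error in some groups, as for miR-200b-3p with gefitinib (20.9 on a mean of 138), and below it in others, as for miR-200b-3p with DMSO (1.24 on a mean of 143).

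**Figure D3:**
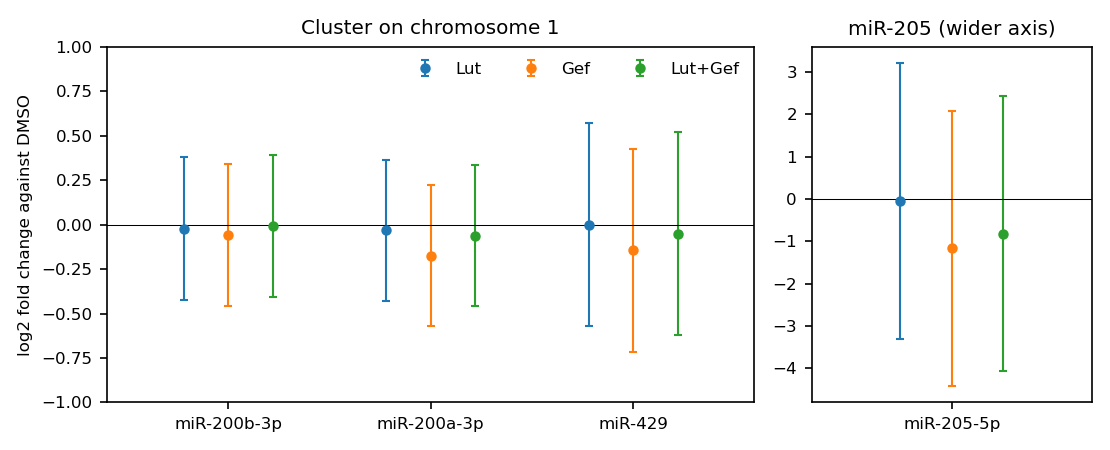
log2 fold change of the scaled signal against DMSO for each member tested, with luteolin (Lut), gefitinib (Gef) or both. Points are limma estimates and bars their 95% intervals, from a fit over 8 arrays. All 12 intervals cross 0, and the axis for miR-205-5p is wider because its intervals reach from -4.42 to 3.21.

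hsa-miR-205-5p, the member outside the miR-200 family, was measured less firmly. Its scaled total signal was 5.37 and 1.72 with DMSO, 4.96 and 1.75 with luteolin, 3.01 on replicate 1 of gefitinib and 4.89 on replicate 1 of luteolin plus gefitinib. It was not detected on replicate 2 of gefitinib or on replicate 2 of luteolin plus gefitinib. Replicate 1 was 3.12 times replicate 2 with DMSO and 2.83 times with luteolin in this total signal. The error that the scanner software gave its total signal ranged from 13.1% to 31.6%, and the spots well above background numbered 22, 25, 11 and 23 of 30 on the replicate 1 arrays (DMSO, luteolin, gefitinib, both) and 2, 4, 0 and 0 on the replicate 2 arrays.

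With the undetected arrays at the floor of 0.609, the log2 fold change of miR-205-5p against DMSO was -0.05 with luteolin, -1.17 with gefitinib and -0.82 with both drugs (SE 1.31). The 95% limma intervals ran from -3.30 to 3.21, from -4.42 to 2.09 and from -4.07 to 2.44, and the adjusted p-values were 1, 0.675 and 0.766. The values with gefitinib and with both drugs depend on the floor and are not bounds. The filter admitted miR-205-5p only through DMSO and luteolin, which can tilt these values downwards. The total signal also left out a probe that was not detected: on replicate 2 of DMSO it was 1.52, the signal of 1 of the 2 probes, while the other probe read 1.12. When the signals of both probes were summed on every array and scaled, whether detected or not, the values were 5.37 and 2.99 with DMSO, 4.96 and 2.90 with luteolin, 3.01 and 1.65 with gefitinib, and 4.89 and 2.88 with both drugs.

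On that scale replicate 1 exceeded replicate 2 by 1.70 to 1.83 times in the 4 groups. The gefitinib arrays had the lowest value of each replicate number. The groups still overlapped, since replicate 1 of gefitinib (3.01) lay above replicate 2 of DMSO (2.99). The share of all miRNAs with this order was not counted, and same-numbered arrays were not taken as pairs. The log2 change of the summed signal against DMSO was -0.08 for luteolin, -0.85 for gefitinib and -0.10 for both drugs (n = 2 per group, no test). The value with both drugs thus moved from -0.82 to -0.10 when the undetected probes were counted at their measured signal. The size of the gefitinib value depended on how low signals were treated. It was -0.81 with a floor of 1, -0.15 with 16 added to the signal before log2, and -0.0601 with normexp and quantile normalization, which adds an offset of 50 (limma adjusted p = 0.726, 0.668 and 0.512). Adding 16 or 50 to signals this low pulls any change towards 0, so those settings cannot show whether the difference holds. Averaging the processed signal over all spots gave -0.84 with gefitinib (limma adjusted p = 0.327) and -0.10 with both drugs (limma adjusted p = 0.922).

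The comparisons between drug groups gave the same count. When gefitinib was added to luteolin, 0 of 4 members were called (background 1.88%), and the log2 fold changes of the chromosome 1 members lay between -0.05 and 0.02. When luteolin was added to gefitinib, 0 of 4 were called (background 4.58%), with values between 0.06 and 0.11. The main effect of gefitinib, averaged over cells with and without luteolin, called 0 of 4 members (background 16.7%), with chromosome 1 values between -0.10 and -0.02. The main effect of luteolin called 0 of 4 (background 6.46%), with values between 0.02 and 0.05.

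The interaction, which is the effect of both drugs less the sum of their single effects, called 0 of 4 members (background 3.33%). Its log2 values lay between 0.08 and 0.14 for the chromosome 1 members, with 95% limma intervals between -0.71 and 0.90. In these 5 comparisons, in the order given, limma gave 0 members with an unadjusted p under 0.05, against 74, 60, 128, 70 and 49 of the 480. The methods' t-test, run on the first 2, also gave 0 members, against 12 and 34 miRNAs that met its threshold with a change over 2-fold.

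miR-205-5p lay farther from 0 than the chromosome 1 members in these comparisons. Its log2 values were -0.77 when gefitinib was added to luteolin, 0.35 when luteolin was added to gefitinib, -0.97 and 0.15 for the main effects of gefitinib and luteolin, and 0.40 for the interaction. The adjusted p-values from limma lay between 0.582 and 0.999, and each value includes undetected arrays at the floor.

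After scaling, the signals of the chromosome 1 members varied little over the 8 arrays. The SD of the scaled log2 signal was 0.10 for miR-200b-3p, 0.12 for miR-200a-3p and 0.19 for miR-429. Among the 365 miRNAs detected on all arrays, 5 had a smaller SD than miR-200b-3p, 12 than miR-200a-3p and 89 than miR-429, and the median was 0.27. Before scaling, the total signals ran from 104 to 178 for miR-200b-3p, from 57.9 to 98.6 for miR-200a-3p and from 21.3 to 42.3 for miR-429. The percentiles used for scaling ran from 60.5 to 92.7, a range in which most of the miR-200a-3p signals lie, and the part of the scaling in the low SD was not tested.

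**Figure D4:**
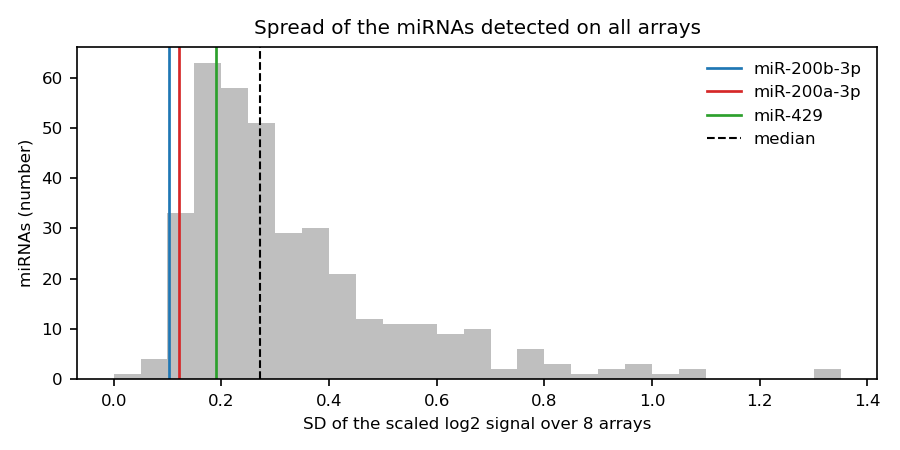
Number of miRNAs by the SD of their scaled log2 signal over all 8 arrays, for the 365 miRNAs detected on all of them (grey bars, 0.05 wide). Vertical lines mark miR-200b-3p (0.10), miR-200a-3p (0.12), miR-429 (0.19) and the median (0.27). All 3 cluster members lie below the median.

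Within an array the ratio of miR-200b-3p to miR-200a-3p was 1.67 and 1.70 with DMSO, 1.67 and 1.72 with luteolin, 1.85 and 1.80 with gefitinib, and 1.72 and 1.79 with both drugs. Both gefitinib arrays lay above the other 6, though only just, at 1.80 on replicate 2 against 1.79 on replicate 2 of both drugs. The whole range was 1.11-fold, and how often other ratios separate in this way was not counted. Against DMSO the log2 ratio changed by 0.01 with luteolin, 0.11 with gefitinib and 0.06 with both drugs, with no test. A ratio within an array is not altered by dividing the array by a constant, although quantile normalization can alter it. Its size reflects the probes as well as the miRNAs, so only its changes were compared.

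The ratio of miR-200b-3p to miR-429 was higher on replicate 2 than on replicate 1 in all 4 groups. It was 3.88 and 4.72 with DMSO, 3.80 and 4.68 with luteolin, and 4.01 and 4.87 with both drugs, and the replicates lay closer, at 4.49 and 4.58, with gefitinib. Its log2 change against DMSO was between -0.02 and 0.08 over the drug groups. Both probes of miR-429 gave nearly the same changes against DMSO, differing by at most 0.02 on the log2 scale. The probes of miR-200b-3p differed by up to 0.17, with both drugs, where 1 probe gave -0.11 and the other 0.06.

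Across the 8 arrays, which share their slide and their scaling, the scaled log2 signals of miR-200b-3p and miR-200a-3p had a Pearson r of 0.90. The r of miR-429 was 0.68 with miR-200b-3p and 0.80 with miR-200a-3p. The r of miR-429 with miR-205-5p was 0.99, with the undetected arrays of miR-205-5p at the floor. Without scaling this r was 0.73, while the 3 pairs within the cluster had higher values of 0.98 (miR-200b-3p and miR-200a-3p), 0.92 (miR-200b-3p and miR-429) and 0.96 (miR-200a-3p and miR-429), so the order of the pairs depended on the scaling. These are descriptions over 8 arrays of 4 treatments, and the difference between replicates 1 and 2 enters all of them.

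Outside the family, the miRNA whose scaled pattern was most like miR-200b-3p among 362 others detected on all arrays was miR-135b-5p (r = 0.79, n = 8 arrays), followed by miR-652-3p (0.60) and miR-330-3p (0.55). miR-135b-5p was also first for miR-200a-3p (0.86), before miR-221-3p (0.65) and miR-4284 (0.63). For miR-429 the nearest were miR-4668-5p (0.80), miR-4497 (0.71) and miR-4653-3p (0.64). The median r over the 362 was -0.07 for miR-200b-3p, 0.01 for miR-200a-3p and -0.14 for miR-429. The values named were picked as the highest of 362 over 8 arrays. Such selection raises them, and no test was run.

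Other miRNAs linked to the epithelial state were read from a list of 12, among them miR-183-5p, miR-96-5p, the miR-34 family and miR-375. Of these, 7 were detected on all 8 arrays and 4 on none, the 4 being miR-203a, miR-34b-5p, miR-34c-5p and miR-375. With luteolin, gefitinib and both drugs against DMSO, 0 of the 8 tested were called by limma, where 2.08%, 12.1% and 12.1% of all tested miRNAs were. Without adjustment 0 of the 8 had a p under 0.05, compared with 41, 114 and 124 of all 480, so a list of this size is not set apart by its counts. The median log2 fold changes of the list were -0.03, 0.31 and -0.07, beside -0.10, -0.10 and -0.16 over all 480 miRNAs tested.

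Of 12 miRNAs linked to the mesenchymal state or to invasion, such as miR-10b-5p and miR-21-5p, 9 were detected on all 8 arrays and 3 on none. Against DMSO 0 of these 9 were called in any of the 3 drug groups, against the same backgrounds of 2.08%, 12.1% and 12.1%. Their median log2 fold changes were 0.03, -0.03 and -0.05. Among these 9, 1 had an unadjusted limma p under 0.05 with gefitinib, where 114 of all 480 miRNAs tested did. It is named for that value: miR-221-3p, at a log2 fold change of -0.49 (limma adjusted p = 0.0909). Of 12 miRNAs that mark blood, endothelial, smooth muscle, liver or striated muscle cells, 11 were detected on no array. The remaining one, miR-142-3p of blood cells, was detected on 1 array at a scaled signal of 1.67.

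The sign of the small differences in the chromosome 1 members depended on how the arrays were scaled. Without scaling, the log2 fold changes of miR-200b-3p, miR-200a-3p and miR-429 with gefitinib were 0.31, 0.19 and 0.22, and with scaling to the spike-in probes they were 0.45, 0.33 and 0.36. The median over all 480 miRNAs moved with them, from -0.10 under the 75th percentile to 0.26 and 0.40. Relative to that median, the 3 members lay between -0.07 and 0.18 in the 3 drug groups under the 75th percentile, no scaling, the small-RNA controls and the spike-ins, and between -0.12 and 0.05 under quantile normalization. Under none of these scalings was a member called.

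**Figure D5:**
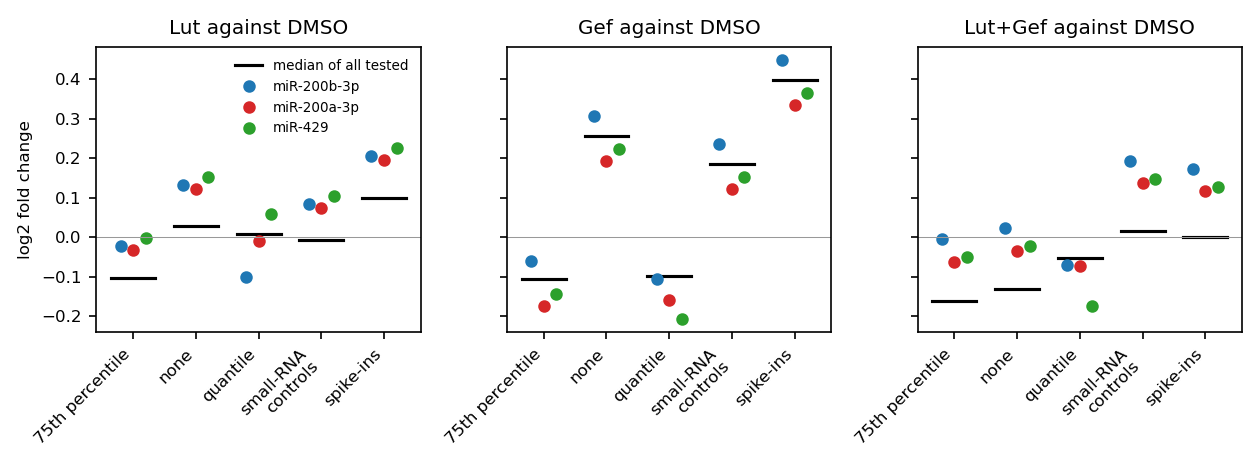
log2 fold change against DMSO of the 3 chromosome 1 members (points) and the median over the miRNAs tested (black lines) under 5 ways of scaling the arrays, for luteolin (Lut), gefitinib (Gef) and both. With gefitinib the median ran from -0.10 to 0.40, and the 3 points lay above 0 wherever it did and below 0 wherever it did. With luteolin and with both drugs, points and median lay on opposite sides of 0 under some scalings.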

How the data were processed

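Small RNA of PC-3 cells was measured on 8 single-color Agilent miRNA arrays. The authors labelled total RNA with Cy3 and extracted each array with Agilent Feature Extraction 10.7.3.1, and deposited background-subtracted signal intensity on a linear scale, unscaled between arrays. The array design names build hg19, and sequences and coordinates here come from RefSeq tables of GRCh38.p14. The software sums the detected probes of a miRNA into a total signal and sets undetected totals to 0.1.

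Totals were divided by the 75th percentile of each array over the 365 miRNAs detected on all 8 arrays, returned to the original range, raised to a floor of 0.609 (the median of the lowest detected scaled signals) and put on the log2 scale. The 480 miRNAs that 1 or more groups had detected on each of their arrays were fitted over 4 groups with limma 3.58.1 in R 4.3.3, giving 4 residual degrees of freedom. Limma p-values are two-sided and adjusted by the Benjamini-Hochberg method. The methods' t-test was run as an alternative. An exact permutation test of 2 arrays against 2 cannot give a p under 0.333, so none was used. Replicates are biological by their labels, which do not say whether cultures were independent, so p-values measure the spread between these arrays.

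The miRNAs named were the 6 members, their opposite strands and the 3 most similar patterns of each member detected throughout. Other lists are given as counts, with miRNAs called against DMSO to be named (0 were called), and individual miRNAs named from the lists otherwise were picked as examples after their values were seen. Members, lists and tests were chosen with earlier results of these data known. The fit was tested on simulated data. Alternatives changed the scaling, spot summary, background correction, filter, floor, test, replicate block and arrays.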

Additional observations from a re-analysis of the deposited data

How the results depend on the processing

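In all 8 comparisons 0 members were called under every alternative that was run, while the calls over all miRNAs ranged from 15 to 73 for gefitinib against DMSO, from 0 to 18 for luteolin and from 12 to 82 for both drugs. The lowest adjusted limma p of a member was 0.0946, for the gefitinib main effect of miR-205-5p with the replicate block. With the replicate block, which leaves the fold changes of this balanced design as they were, 0 members were called in any comparison. The adjusted limma p of miR-205-5p against DMSO moved from 0.675 to 0.146 with gefitinib (log2 fold change -1.17) and from 0.766 to 0.247 with both drugs (-0.82). Replicate differences had a correlation of 0.91 between DMSO and luteolin. Those of luteolin plus gefitinib had 0.41 with DMSO and 0.46 with luteolin. Correlations with gefitinib alone ran from -0.13 to 0.07. Same-numbered arrays thus shared deviations in some groups and not in all. The numbers were not taken to pair the samples in the main fit, and the replicate block was kept as an alternative. Scaling to the percentile over all miRNAs could not be run, because that percentile was the value of an undetected miRNA on 5 arrays.

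Of the 672 member values over all comparisons and alternatives, 131 turned sign, and 0 of these were called. The shift of the median of all miRNAs with gefitinib was 0.36 without scaling, 0.29 with the small-RNA controls and 0.50 with the spike-ins. In the order miR-200b-3p, miR-200a-3p, miR-429 and miR-205-5p, the luteolin values were 0.13, 0.12, 0.15 and 0.11 without scaling, 0.0829, 0.0731, 0.10 and 0.0587 with small-RNA controls, and 0.20, 0.19, 0.22 and 0.18 with spike-ins. Quantile normalization gave 0.0599 for miR-429 and 0.43 for miR-205-5p with luteolin. For miR-429 with luteolin, the mean processed signal gave 0.00503, the deposited series values gave 0.00446 and normexp with quantile normalization gave 0.0311. Normexp gave miR-205-5p 0.0173 with luteolin and 0.0118 with both drugs.

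With gefitinib, miR-200b-3p, miR-200a-3p and miR-429 were at 0.31, 0.19 and 0.22 without scaling, 0.23, 0.12 and 0.15 with small-RNA controls, and 0.45, 0.33 and 0.36 with spike-ins. With both drugs, miR-200b-3p was at 0.0232 without scaling. The 3 members were then at 0.19, 0.14 and 0.15 with small-RNA controls and at 0.17, 0.12 and 0.13 with spike-ins. Requiring 50% of spots well above background left miR-205-5p detected on 3 arrays instead of 6, and moved no other member.

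Leaving out 1 array at a time gave miR-200b-3p -0.0710 to 0.0280 with luteolin, -0.21 to 0.0945 with gefitinib and -0.0985 to 0.0889 with both. For miR-200a-3p the ranges were -0.0594 to -0.0033 with luteolin, -0.31 to -0.0393 with gefitinib and -0.18 to 0.0600 with both. In the same order they were -0.13 to 0.13, -0.31 to 0.0263 and -0.29 to 0.18 for miR-429. For miR-205-5p they were -0.87 to 0.78 with luteolin, -2.32 to -0.01 with gefitinib and -2.32 to 0.69 with both, -2.27 to 0.73 for gefitinib added to luteolin, -1.15 to 1.85 for luteolin added to gefitinib, -0.60 to 0.90 for the luteolin main effect and -1.11 to 1.90 for the interaction. For its gefitinib main effect (-0.97) they were -1.72 to -0.22.

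The 2 arrays per group limit every comparison. The values of miR-205-5p against DMSO with gefitinib and with both drugs depend on the floor, and this miRNA passed the filter only through DMSO and luteolin. The cause of the changes in sign beyond the shift of the median was not tested.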
